A study of Mus musculus with 4 samples.

Results

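The brush border peptidases are the membrane-bound enzymes with which absorptive cells of the small intestine cut dietary peptides at their surface. The genes were a list of 10, chosen with earlier results of these data known: Anpep, Enpep, Xpnpep2, Dpp4, Ace, Naaladl1, Mme, Mep1a, Mep1b and Tmprss15. Of these, 9 had a probe set that the platform annotation assigned to exactly 1 gene symbol, out of 12393 genes measured, and Naaladl1 was not analysed here. Expression was measured on 4 Affymetrix mouse arrays. The tissue was the epithelium of the proximal intestine, the strain C57BL/6 and the age of the mice 4 to 6 weeks. The enterocyte group (2 arrays) held villus cells released with EDTA after conditional knockout of Atoh1, a transcription factor without which secretory cells do not form, and the stem cell group (2 arrays) held flow-sorted Lgr5(hi) cells of wild-type mice. Tamoxifen, which induces the knockout, is given as 1 mg per day for 5 days with a wait of 5 days in the labels of all 4 samples, wild type included. The Cre driver, the number of animals behind a sample and any pooling were not stated in the labels. The samples of a group are labelled as biological replicates with no animal named, so p-values measure the spread between these samples. Cell type, genotype and isolation changed together between the groups and cannot be told apart.

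Digestion of protein begins with soluble gastric and pancreatic proteases in the lumen and is finished by peptidases of the microvillus membrane, which leave amino acids and short peptides for uptake. Aminopeptidases trim a peptide from its amino end, carboxypeptidases from its carboxyl end, and endopeptidases cut inside it. Enteropeptidase stands upstream of the pancreatic proteases, since it turns pancreatic trypsinogen into trypsin, which then activates the other pancreatic zymogens. Crypt stem cells do not face the digesting lumen, and brush border enzymes are classical markers of the differentiated villus enterocyte.

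All 9 measured peptidase genes were higher in the Atoh1 knockout enterocytes than in the Lgr5(hi) stem cells. The rises spanned from 2.17-fold for Mep1a to 30.1-fold for Ace, among the 7 genes measured above background in both groups. The median log2 difference (enterocyte minus stem) was 4.01, also with dim stem values raised to the background level, beside -0.0026 over all 12393 genes. All 9 passed the threshold of 0.05 on the adjusted p of limma, where 18.2% of all genes passed it as higher and 22.4% as lower in enterocytes, 40.6% in all. In all 9 both enterocyte arrays lay above both stem arrays, as they did in 30.5% of all genes. At least 16-fold higher and past the threshold were 5 of the 9 (Ace, Mep1b, Anpep, Mme and Enpep), against 0.952% of all genes. Such counts beside shares describe the list and do not test it, given how it was chosen. Anpep (16.7-fold), Mme (16.3-fold) and Enpep (16.1-fold) stood just inside that line. The count was 2 of 9 with reference gene centring or with a pseudocount of 32, and 3 without enterocyte replicate 1. Without either stem array 0 of the 9 passed the threshold (adjusted p from 0.0524 to 0.194 by limma), nor did any other gene of the table, and without either enterocyte array 6 of the 9 passed it. In such bulk samples, fewer cells of a type and less RNA per cell cannot be told apart.

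**Figure D1:**
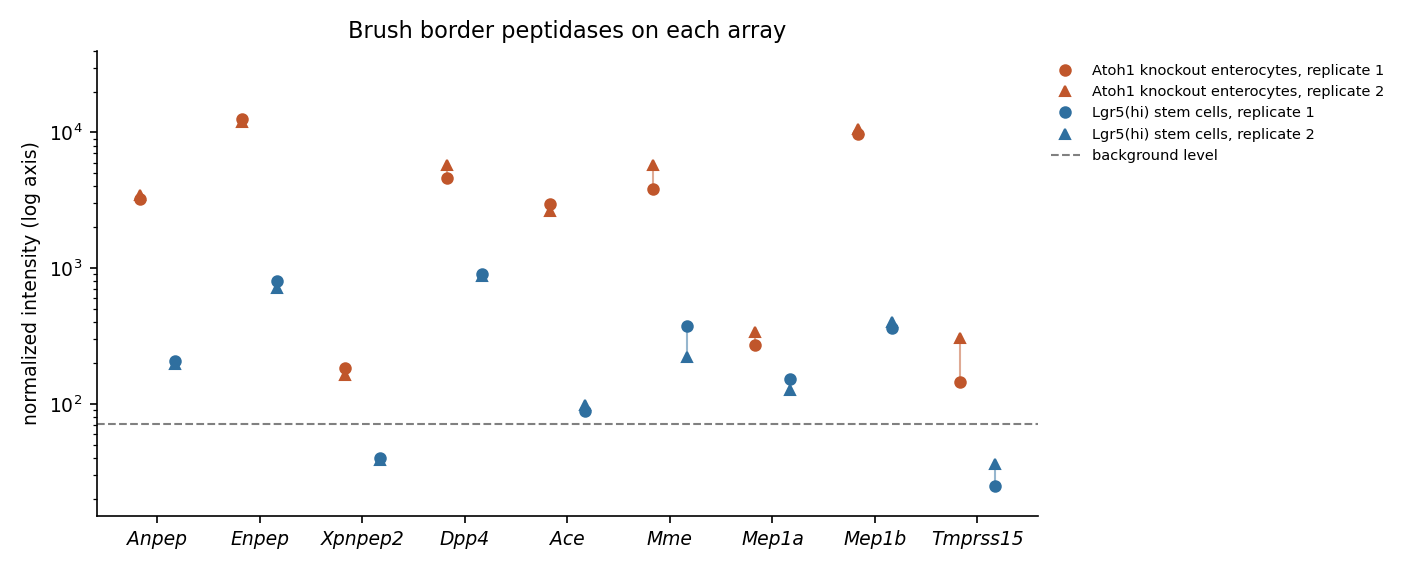
Normalized intensity (log axis) of the 9 measured peptidase genes on each array, with Atoh1 knockout enterocytes in orange left of Lgr5(hi) stem cells in blue, replicate 1 as circles and replicate 2 as triangles. In every gene both enterocyte arrays lie above both stem arrays, and only Xpnpep2 and Tmprss15 have both stem arrays under the dashed background level of 71.18.

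Upstream sequence is shown for 4 of these genes because they hold a match before the transcript start. All 9 measured genes rose, so the rise does not set these 4 apart. RefSeq promoter windows of build GRCm38.p6 (from 250 bases before a transcript start to 50 after it) matched 8 of the 10 listed genes, in 11 windows. Mep1b and Naaladl1 had no window, and a further window of Ace, which held no match, is not printed. They were searched on both strands for 5 short motifs, each spelled out with its result further on: those of the intestinal factors HNF1, HNF4, CDX and GATA, and the TATA box of the basal machinery. The 250 bases before the start are printed below, 5′ to 3′ in the direction of the gene, with every match in capitals.
Ace (chr11:105967698-105967947, plus strand): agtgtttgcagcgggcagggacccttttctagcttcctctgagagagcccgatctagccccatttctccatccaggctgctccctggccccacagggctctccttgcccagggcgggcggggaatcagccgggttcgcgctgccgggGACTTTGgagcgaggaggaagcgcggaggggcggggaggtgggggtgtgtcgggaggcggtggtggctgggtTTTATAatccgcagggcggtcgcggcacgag
Enpep (chr3:129332750-129332999, minus strand): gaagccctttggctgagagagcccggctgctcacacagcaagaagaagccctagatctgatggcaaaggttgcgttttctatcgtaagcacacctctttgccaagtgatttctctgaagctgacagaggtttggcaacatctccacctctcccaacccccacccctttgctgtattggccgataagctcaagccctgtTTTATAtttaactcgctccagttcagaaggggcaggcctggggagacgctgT
Dpp4 (chr2:62412232-62412481, minus strand): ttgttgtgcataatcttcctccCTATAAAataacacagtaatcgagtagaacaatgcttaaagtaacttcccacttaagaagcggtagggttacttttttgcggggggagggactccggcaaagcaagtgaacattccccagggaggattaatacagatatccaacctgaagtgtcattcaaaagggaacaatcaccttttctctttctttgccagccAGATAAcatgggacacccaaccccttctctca
Tmprss15 (chr16:79091098-79091347, minus strand): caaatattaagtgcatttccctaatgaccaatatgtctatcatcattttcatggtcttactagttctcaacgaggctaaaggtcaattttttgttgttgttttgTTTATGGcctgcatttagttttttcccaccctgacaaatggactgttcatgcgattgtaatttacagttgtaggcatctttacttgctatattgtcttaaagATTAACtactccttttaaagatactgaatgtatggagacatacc
No motif was common to the genes. The counts below are of genes, some with several windows, while the shares are of windows. By window, 1 of the 11 held the HNF1 core, 1 the HNF4 core and 1 the GATA site. The CDX site was in 3 of the 11 windows and the TATA box in 3. The HNF1 core, GTTAAT, was found in 1 of the 8 genes, in reverse in Tmprss15, where 7.1% of all 32851 windows of this length hold it. The HNF4 core, CAAAGTC, was found in reverse in Ace alone, against 4.44% of windows. The GATA site, AGATAA, was found in Dpp4 alone, against 11.2%. The CDX site, TTTATNG, matched in Dpp4, Mep1a and Tmprss15, against 10.9%, with the match of Mep1a lying after the start and so not printed. The TATA box, TATAAA, matched in Ace, Dpp4 and Enpep, against 13.6%. In Ace it lay in reverse from 31 to 26 bases before the start. In Dpp4 the TATA match lies inside the reverse CDX match, and the last capital of Enpep is the first base of a match that runs past the start. Anpep, Mme and Xpnpep2 held none of the 5 motifs. A match is a match of letters and not a measured binding site.

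The aminopeptidases all rose. Anpep encodes aminopeptidase N, also known as CD13, which removes neutral residues from the amino end and is a major peptidase of the microvillus membrane. Anpep had normalized intensities of 3214.5 and 3488.4 in the enterocyte arrays, against 205.3 and 196.2 in the stem arrays. The groups were far apart and the arrays of each lay close together, giving a 16.7-fold rise (4.06 ± 0.07 SE on the log2 scale, limma's adjusted p = 0.00261, with 2 arrays in each group). Enpep encodes aminopeptidase A, which takes acidic residues and also trims angiotensin. Enpep had 12584.5 and 11943.6 in the enterocyte arrays, against 804.9 and 718.8 in the stem arrays, a 16.1-fold rise (4.01 ± 0.09 SE, adjusted p = 0.00261 by limma). Both stem arrays were thus well above the background level of 71.18, which 90 percent of 26 eye, testis, heart and other non-intestinal genes do not exceed in their mean. The differences of Anpep and Enpep, relatives in the same family of zinc aminopeptidases, were 0.05 ± 0.11 SE apart on the log2 scale with overlapping 95% intervals (3.84 to 4.29 and 3.74 to 4.28). Xpnpep2 encodes the membrane-bound aminopeptidase P, which removes an end residue that precedes proline. Xpnpep2 had 185.2 and 163.5 in the enterocyte arrays, against 39.7 and 38.9 in the stem arrays, where both values were under the background level. It was at least 2.44-fold higher (log2 difference as measured 2.15 ± 0.09 SE, adjusted p = 0.00299 by limma).

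Dpp4 encodes dipeptidyl peptidase 4, or CD26, which cuts dipeptides from the amino end after proline or alanine and is also carried by T lymphocytes. Dpp4 had 4649.8 and 5755.5 in the enterocyte arrays, against 908.1 and 873.4 in the stem arrays. The groups did not overlap, and the rise was 5.81-fold (2.54 ± 0.13 SE, adjusted p = 0.00356 by limma). A dimmer probe set of Dpp4 had 177.3 and 182.9 in the enterocyte arrays, against 120.3 and 88.2 in the stem arrays. That probe set gave a log2 difference of 0.81 ± 0.19 SE and did not pass the test (adjusted p = 0.0648 by limma, fitted with the dimmest probe set of each gene). The probe sets of Dpp4 therefore pointed the same way but disagreed in size and in the call.

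Ace encodes angiotensin-converting enzyme, a carboxypeptidase that releases dipeptides. Ace had 2980.5 and 2618.9 in the enterocyte arrays, against 88.8 and 97.4 in the stem arrays, which lay a little above the background level. Its 30.1-fold rise was the highest measured (4.91 ± 0.10 SE, adjusted p = 0.00261 by limma) and ranked 52 among the differences of 12393 genes. The other probe set of Ace had 628.8 and 561.4 in the enterocyte arrays, against 101.9 and 107.9 in the stem arrays. It rose 5.67-fold (2.50 ± 0.08 SE, adjusted p = 0.00438 by limma, dimmest probe sets), a smaller rise that also passed the test.

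Among the endopeptidases, the meprin subunits differed in their response. Meprins are secreted or membrane-bound metalloproteases of the astacin family, built from an alpha subunit (Mep1a) and a beta subunit (Mep1b) that anchors the complex in the membrane. Mep1b had 9710.1 and 10565.9 in the enterocyte arrays, against 359.6 and 404.2 in the stem arrays, a rise of 26.6-fold (4.73 ± 0.10 SE, adjusted p = 0.00261 by limma). Mep1a had 273.0 and 336.7 in the enterocyte arrays, against 152.7 and 127.2 in the stem arrays. Its groups did not overlap, yet the rise of 2.17-fold (1.12 ± 0.17 SE, adjusted p = 0.0182 by limma) was the lowest of the 9 and ranked 1270 among all genes. The log2 difference of Mep1b exceeded that of Mep1a by 3.61 ± 0.19 SE, and their 95% intervals, 4.44 to 5.03 and 0.61 to 1.63, did not overlap. Each subunit was read by 1 probe set, and probe sets can differ in how far they follow a change. With each array centred on the median of 10 reference genes, Mep1a was no longer past the threshold (0.43, adjusted p = 0.0645 by limma).

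Mme encodes neprilysin, or CD10, a neutral endopeptidase that cuts before hydrophobic residues and degrades many peptide hormones. Mme had 3824.5 and 5789.7 in the enterocyte arrays, against 374.7 and 222.4 in the stem arrays. The groups did not overlap, but both pairs of replicates were spread, and the 16.3-fold rise had a wide error (4.03 ± 0.38 SE, adjusted p = 0.00784 by limma). The other probe set of Mme had 887.9 and 1609.5 in the enterocyte arrays, against 31.96 and 32.54 in the stem arrays, which were under the background level. It was at least 16.8-fold higher (log2 difference as measured 5.21 ± 0.35 SE, adjusted p = 0.00761 by limma, dimmest probe sets). On both probe sets enterocyte replicate 2 was the higher array of its group.

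Tmprss15 encodes enteropeptidase, the serine protease of the duodenal brush border that activates trypsinogen. Tmprss15 had 144.6 and 305.1 in the enterocyte arrays, against 25.0 and 36.2 in the stem arrays. Both stem arrays were under the background level, and the enterocyte arrays were 2.11-fold apart. Tmprss15 was at least 2.95-fold higher (log2 difference as measured 2.81 ± 0.48 SE, adjusted p = 0.0245 by limma). This adjusted p was the highest of the 9.

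**Figure D2:**
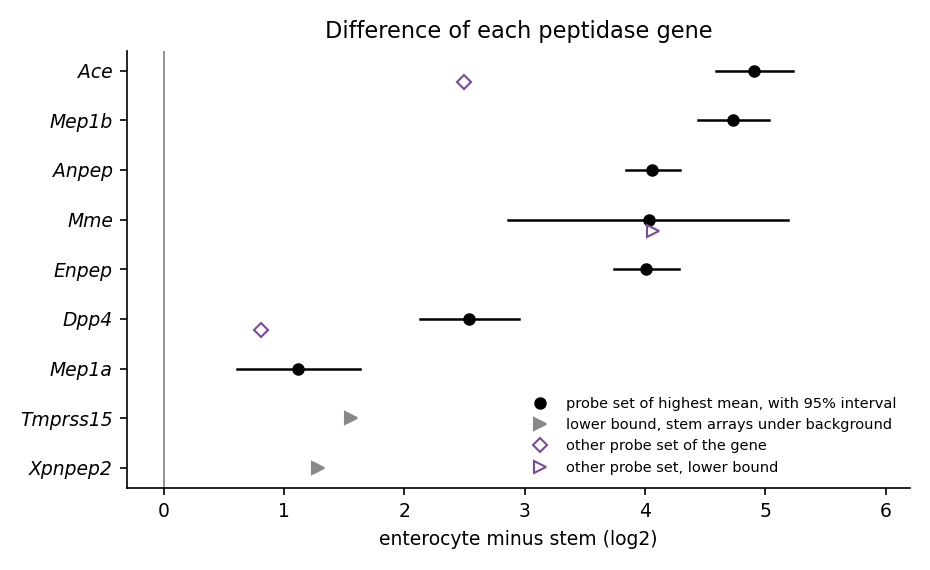
Log2 difference (enterocyte minus stem) of the peptidase genes, with filled circles and limma's 95% interval for the 7 genes measured above background in both groups, filled triangles for the lower bounds of Tmprss15 and Xpnpep2, and open symbols for the other probe set where a gene has a second (a triangle where it is a lower bound). Among the 7, Ace (4.91) and Mep1b (4.73) lead and Mep1a (1.12) is last, and the open diamonds of Ace (2.50) and Dpp4 (0.81) lie below their circles.

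Xpnpep2 and Tmprss15 are lower bounds and have no place in an order of the differences. Among the other 7, Ace and Mep1b led with a gap of 0.18 ± 0.14 SE and overlapping intervals. Mep1b and Anpep were 0.67 ± 0.12 SE apart and their intervals did not overlap. Anpep, Mme and Enpep followed within 0.03 and 0.02 of each other, so that their order is not resolved. Mme is not resolved from Ace and Mep1b either, since its interval overlapped theirs (4.59 to 5.23 and 4.44 to 5.03). The order is that of the probe sets of highest mean. Other probe sets gave 2.50 for Ace, 0.81 for Dpp4 and 5.21 as measured for Mme. Dpp4 came 1.47 ± 0.16 SE below Enpep, with no overlap of their intervals, though the wide interval of Mme (2.86 to 5.19) reached into that of Dpp4 (2.13 to 2.95). Mep1a was last, 1.42 ± 0.21 SE below Dpp4 and again without overlap.

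The spread between arrays of a group was uneven across the peptidases. Between the enterocyte arrays, replicate 2 was above replicate 1 in 6 of 9 genes and below it in Enpep, Xpnpep2 and Ace. Tmprss15 had a log2 gap of 1.08 (replicate 2 minus replicate 1), wider than that of 99.1% of all genes, and Mme one of 0.60, wider than 94.1%. Between the stem arrays Mme had a gap of -0.75, wider than 99.1% of all genes, and Tmprss15 one of 0.54, wider than 96.8%. The gap of Mme thus ran in opposite directions in the groups, and that of Tmprss15 in the same direction. The other 7 genes had gaps of at most 0.31 in the enterocyte and 0.26 in the stem arrays in size, where the median size over all genes was 0.14 and 0.13.

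**Figure D3:**
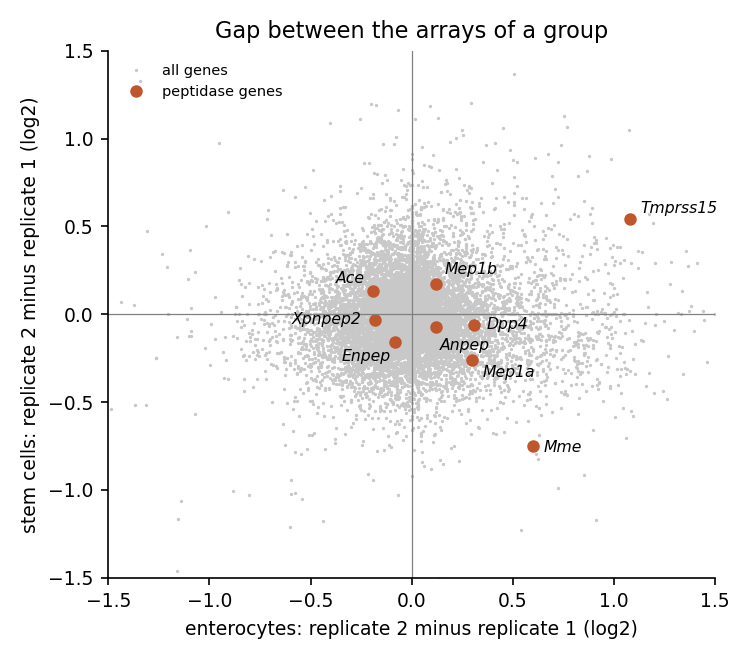
Replicate 2 minus replicate 1 (log2) in the enterocyte arrays on the x axis and in the stem arrays on the y axis, for all genes in grey and the 9 peptidase genes in orange; 42 genes lie outside the axes. Tmprss15 (1.08 and 0.54) and Mme (0.60 and -0.75) lie apart from the other 7 peptidases, which sit within 0.31 of 0 on both axes.

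The labels were checked against marker lists. Lgr5 had 120.8 and 68.1 in the enterocyte arrays, the second under background, against 2572.1 and 1989.5 in the stem arrays, and Atoh1 had 33.4 and 38.7 in the enterocyte arrays, under background, against 172.9 and 209.4 in the stem arrays. Of 9 measured enterocyte markers all 9 were higher, among them Vil1, the microvillus protein villin, at 3.26-fold, and Fabp1, a fatty acid binding protein, at 6.07-fold. All 8 measured stem cell markers were lower, with sums of 1855 and 1577 in the enterocyte arrays, against 12270 and 10670 in the stem arrays. Of 3 measured Paneth cell markers 2 were lower, 0 higher and 1 did not pass. Their sums were 381 and 2845 in the enterocyte arrays, against 29076 and 38064 in the stem arrays. Lymphocyte markers were higher in 8 of 9 cases, with sums of 6224 and 8247 in the enterocyte arrays, against 501 and 642 in the stem arrays. Most of the enterocyte sums came from Gzma, with 3843.5 and 4967.8 there, against 91.1 and 177.7 in the stem arrays. The B cell gene Cd79a was under background on every array, while the T and cytotoxic cell genes Cd3g and Gzma rose. Of 8 myeloid markers 2 were higher, 2 lower and 4 did not pass. Their sums were 700 and 664 in the enterocyte arrays, against 2141 and 3031 in the stem arrays. Most of the stem sums came from Lyz2, with 1341.7 and 2195.9 there, against 34.9 and 130.4 in the enterocyte arrays. Itgax, among those called higher, was under background on every array. White blood cells also carry Dpp4, Anpep and Mme, and the part of these cells in the differences was not tested. Goblet cell markers were lower in 6 of 6 cases, summing to 590 and 1139 in the enterocyte arrays, against 35797 and 41923 in the stem arrays. Tuft cell markers were higher in 4 of 5 cases, with sums of 1597 and 1049 in the enterocyte arrays, against 366 and 297 in the stem arrays. Il25, among those called higher, was under background on every array. Enteroendocrine markers were lower in 4 of 6 cases and higher in 0, with sums of 502 and 430 in the enterocyte arrays, against 7790 and 9650 in the stem arrays. In the stem arrays the goblet and Paneth sums were above those of the stem cell markers, and the enteroendocrine sums below them. The part of secretory cells in the differences of the peptidases was not tested. All 6 endothelial markers were under background on all 4 arrays, as were 6 of 8 stromal markers. Of the other stromal markers, Acta2 had 128.5 and 78.0 in the enterocyte arrays, against 53.7 and 53.7 in the stem arrays, and Dcn had 56.8 and 77.6 in the enterocyte arrays, against 40.3 and 55.5 in the stem arrays. No stromal marker passed the test, the sums were 369 and 330 in the enterocyte arrays, against 244 and 272 in the stem arrays, and the part of stromal cells in the differences was not tested. The arrays also differed in signs of RNA quality. The 3′ minus 5′ log2 signal of the Gapdh control probe sets was 0.15 and 0.17 in the enterocyte arrays, against 1.70 and 1.92 in the stem arrays, and that of Actb was 0.56 and 0.50 in the enterocyte arrays, against 2.06 and 2.10 in the stem arrays. Across the 64 control probe sets, enterocyte minus stem ran from -2.55 (bioB, 5′) to 2.90 (Gapdh, 5′). The bioB control is an added bacterial transcript and no sign of the quality of the sample RNA. The part of these gaps in the differences of the peptidases was not tested.

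Peptidases outside the brush border list moved in both directions. Of 19 measured other surface peptidases 1 was higher, 3 were lower and 15 did not pass, with a median log2 difference of -0.03. On every array 8 of the 19 were under background, where a difference could hardly be seen. The gene that rose was Dpep1, a membrane dipeptidase, with 3356.8 and 3573.3 in the enterocyte arrays, against 80.6 and 75.5 in the stem arrays. Its rise of 44.4-fold (5.47 ± 0.07 SE, adjusted p = 0.00225 by limma) was above that of each of the 9 members. Ece2, an endothelin-converting enzyme, fell 2.37-fold and the serine protease gene Prss8 2.04-fold. Of 25 intracellular peptidases 8 were higher, 6 lower and 11 did not pass, at a median of 0.06. Pepd, the cytosolic prolidase that splits dipeptides ending in proline, rose 5.85-fold (2.55 ± 0.12 SE), and the leucine aminopeptidase gene Lap3 rose 5.16-fold (2.37 ± 0.16 SE). Thop1, an oligopeptidase, fell 3.24-fold and Blmh, bleomycin hydrolase, 3.19-fold.

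Genes on either side of the membrane peptidases gave different counts. Of 8 measured carriers of peptides and amino acids, which take up what the peptidases release, 7 were higher, 0 lower and 1 did not pass, at a median of 3.25. The peptide transporter gene Slc15a1 was at least 21.5-fold higher, and Slc6a20a, a proline carrier, rose 37.5-fold (5.23 ± 0.56 SE). Of 10 pancreatic protease genes, whose products enteropeptidase sets in motion, 6 were under background on every array, 1 was higher and 1 lower. These were the elastase gene Cela1 (1.53-fold higher) and Ctrl, a chymotrypsin-like protease (1.95-fold lower). Of 12 transcription factors of the enterocyte program 7 were higher, 2 lower and 3 did not pass, at a median of 1.01. Creb3l3, a regulator of lipid genes, rose by 4.09 ± 0.16 SE on the log2 scale and Hnf4g, a nuclear receptor family member, 10.3-fold (3.36 ± 0.40 SE). Both caudal factors, Cdx2 and Cdx1, fell, by 1.02 and 0.93 on the log2 scale.

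**Figure D4:**
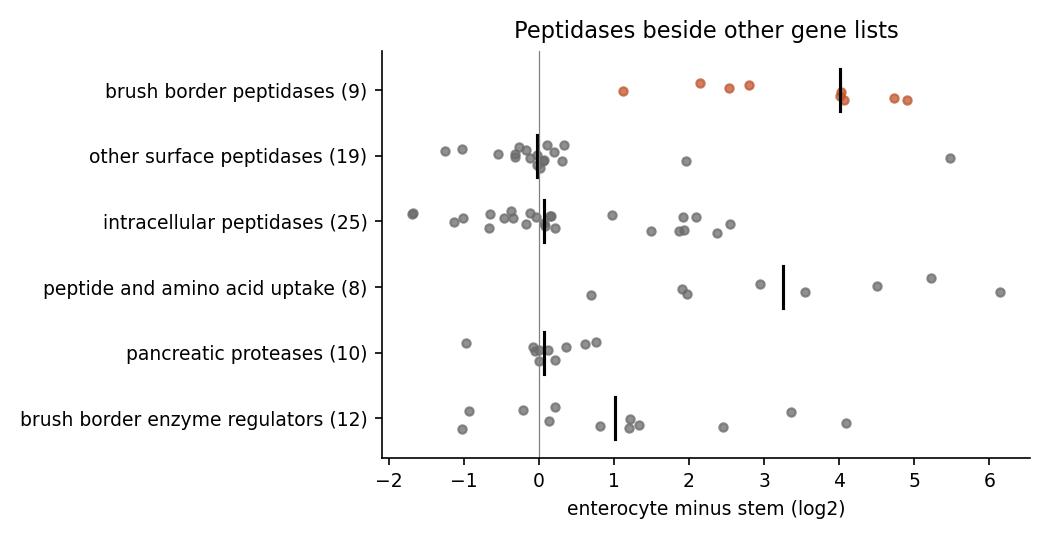
Log2 difference (enterocyte minus stem) of every measured gene of the brush border peptidase list and of 5 other lists, with a point per gene, the number of genes in brackets and a black bar at each list's median. The peptidases (median 4.01) and the uptake carriers (3.25) lie to the right of 0, while Xpnpep2 and Tmprss15 are drawn at their measured differences. The medians of the other surface peptidases (-0.03), intracellular peptidases (0.06) and pancreatic proteases (0.06) lie near 0. Under background on every array were 8 other surface peptidases, 0 intracellular peptidases and 6 pancreatic proteases.

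By likeness of profile over the 4 arrays, each gene taken relative to its own stem mean, the genes closest to the median profile of the 9 peptidases were Sec23a, Prxl2a and Slc25a24. Their root mean square distances were 0.065, 0.068 and 0.078 on the log2 scale. That median profile stood at 3.73 and 3.97 in the enterocyte arrays, against 0.03 and -0.03 in the stem arrays. Sec23a rose 14.8-fold and Prxl2a 13.5-fold. Slc25a24 had 381.3 and 441.5 in the enterocyte arrays, against 31.8 and 26.4 in the stem arrays, under the background level. Its log2 difference as measured was 3.82, so that its fold and its closeness to the profile are not exact. With 4 arrays in 2 groups, such likeness mostly restates the size of the difference.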

How the data were processed

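RNA from 4 samples was measured on Affymetrix arrays. The authors deposited a normalized, linear intensity for each probe set (7.93 to 41703.8). The median was 102.4 and 103.8 on the enterocyte arrays and 110.6 and 109.5 on the stem arrays. Per the submitters' processing notes RMA was used; its version and any further arrays in that step are not stated there. Log2 was taken of these intensities with no pseudocount. Of 22690 probe sets, 64 controls were left out, 20380 had exactly 1 gene symbol, 691 several and 1555 none. The probe set of highest mean stood for each of 12393 genes. Differences were tested, two-sided, with limma 3.58.1 (lmFit, eBayes; R 4.3.3), adjusted by Benjamini-Hochberg across the genes, at 0.05; there were 2 residual and 1.23 prior degrees of freedom. An exact permutation test of 2 against 2 arrays cannot go below p = 0.333. SE is limma's standard error, and the number of arrays limits the precision. The background level was log2 6.15; against a group below it, folds are written "at least", with each dim array raised to that level. Named genes are all members, and Lgr5, Atoh1, Vil1 and Fabp1. From each other list, up to 2 genes with the largest rise and 2 with the largest fall past the threshold are named. Cd79a, Cd3g, Gzma, Lyz2, Itgax, Il25, Acta2 and Dcn were named after their values were seen. The members and lists were chosen with earlier results of these data known. The fit was tested on simulated data. Alternatives covered the replicate block, each array left out, normalization, pseudocount, a filter on dim genes, the choice of probe set and the variance model.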

Additional observations from a re-analysis of the deposited data

How the results depend on the processing

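All 9 peptidases stayed higher in enterocytes under every alternative run, and the count past the threshold was 8 or 9 except where an array was left out (0 to 6). The members' ranges were widest for Ace (2.50 to 5.00), Dpp4 (0.81 to 2.69) and Mme (3.34 to 5.21), each with a second probe set. The count of members at least 16-fold higher and past the threshold was 5, but 2 with reference gene centring, 2 with a pseudocount of 32 and 0 to 4 without 1 array. Of the recomputed member differences, 91 kept their side of the threshold and 26 did not. Without 1 array, the counts past the threshold ran from 0 to 1721 for all genes (5036 with all arrays, and 4675 and 4817 at an unadjusted p under 0.05 without stem replicate 1 and 2), 0 to 1 for other surface peptidases, 0 to 5 for intracellular peptidases, 0 to 2 for uptake carriers, 0 to 0 for pancreatic proteases and 0 to 2 for regulators, where fewer samples leave 1 residual degree of freedom and the lone array is assumed to vary like the other group. Reference gene centring lowered the difference of every gene by the same amount. It moved the median of all genes to -0.69 and their count to 10509 (1276 higher, 9233 lower, against 2257 and 2779). The other counts became 17 other surface, 24 intracellular and 7 pancreatic genes. Of the 10 reference genes themselves, 4 were higher, 1 lower and 5 did not pass, at a median of 0.42. The cause of their difference was not tested. Quantile normalization gave 7 other surface and 4 pancreatic genes, and the filter on dim genes 4 pancreatic genes. Samples of the same replicate number were not treated as pairs, since the labels name no animal. Deviations of arrays with the same number correlated at r = 0.05 across genes, which cannot show whether such samples were paired. The replicate block left 9 members and 4567 genes past the threshold. Dim levels near the background limit Xpnpep2 and Tmprss15.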

Other observations

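The enterocyte arrays differed from each other in some genes around the peptidases. Slc6a20a had 8476.7 in enterocyte replicate 1 and 3408.1 in replicate 2, and Hnf4g had 670.7 and 1266.8. The summed intensity of the 3 measured Paneth cell markers was 381 in enterocyte replicate 1 and 2845 in replicate 2, against 29076 and 38064 in the stem arrays. These were picked after their values were seen.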
